A study of Mus musculus with 9 samples.

Results

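Transcripts of p53 pathway genes were followed in N1E-115, a mouse neuroblastoma line, in 3 states: with mouse Tcof1 overexpressed, as wildtype, and after knockdown of Tcof1. The members were p53 itself (Trp53), its inhibitors Mdm2 and Mdm4, and the targets Ccng1, Trp53inp1, Gadd45a, Aen, Bax, Bbc3 and Pmaip1, chosen by name. They were chosen with earlier results of these data known, so their counts are not those of a blind selection. Every probe set annotated with exactly 1 of these 10 symbols was taken. This gave 15 of 22626 probe sets, for 8 of the 10 genes. Trp53 and Bax had no probe set with that single symbol in the annotation used and were not analysed here. All 9 arrays, 3 per group and lettered A, B and C, carried total RNA of the same line. The labels do not say how Tcof1 was raised or lowered, whether a group is 1 clone, or whether letters are separate cultures, so the p-values take in only array-to-array variation, possibly of technical origin.

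Tcof1 encodes treacle, a nucleolar protein of ribosomal RNA transcription. When ribosome production in the nucleolus is disturbed, free ribosomal proteins such as Rpl5 and Rpl11 bind the ubiquitin ligase Mdm2, which then no longer marks p53 for breakdown. Stabilised p53 switches on genes of cell cycle arrest, repair and apoptosis, and also Mdm2 and Ccng1, which act back on p53. In mouse embryos with too little treacle, p53-dependent death of neural crest cells is part of the known course of Treacher Collins syndrome. p53 is regulated mostly at the protein level, which arrays do not measure.

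The values are deposited intensities in arbitrary units, 1 per probe set and array. Array medians lay between 164.1 and 185.95, and log2 values correlated at 0.972 to 0.978 within groups and at 0.956 to 0.978 between groups. Of 15 measured neuroblastoma line markers, 14 had a mean of at least 50 units. Among them, Th, which makes the catecholamine precursor, read 3504.4 to 3890 in wildtype arrays, and Ddc was the exception. These markers moved too. In overexpressing cells Dbh and Isl1 were called higher and Chga, Stmn2 and Ache lower than in wildtype. Of all named genes, 5.04% were called higher and 6.21% lower there. Against knockdown 6 of 15 were called, 1 higher and 5 lower, beside 3.56% and 5.25% of named genes. The 15 markers summed to 44467 to 48726 units in overexpressing, 50003.6 to 55740.4 in wildtype and 52895.3 to 57114.2 in knockdown arrays. Their part in the results was not tested. Tcof1 itself was called higher in overexpressing than in wildtype cells on 1 of 3 probe sets (1423600_a_at, 0.87 ± 0.21, adjusted p = 0.0241). The others, 1423601_s_at at 0.63 ± 0.20 and the brightest, 1424643_at, at 0.39 ± 0.17, did not pass (adjusted p = 0.0786 and 0.187). Against knockdown the same sets were at 1.09 ± 0.21, 1.03 ± 0.20 and 0.33 ± 0.17 (adjusted p = 0.0116, 0.0137 and 0.267). No Tcof1 probe set showed a reduction from wildtype in the knockdown arrays that passed (adjusted p = 0.51 to 0.934), so these values do not check the knockdown label. Markers of Schwann cells and glia summed to 604.8 to 761 units in overexpressing, 882.6 to 986.8 in wildtype and 860.3 to 980 in knockdown arrays over 6 genes, of which Erbb3 was called lower in overexpressing cells than in either other group. Of the 6, 2 had a mean under 50 units, and their part in the results was not tested. Fibroblast markers (10 genes) summed to 529.8 to 671.9, 618.4 to 840.2 and 794.8 to 892.9 units, and blood and immune markers (8 genes) to 632.1 to 759.9, 737.7 to 779.5 and 616.8 to 1001.7 units, in the same order. Pdgfrb was called lower in overexpressing cells than in wildtype and knockdown cells, and all 10 fibroblast markers had lower values in overexpressing than in knockdown cells. A mean under 50 units was found for 4 of the 10 fibroblast and 2 of the 8 blood markers. Among blood markers Cd3e was called between overexpressing and knockdown cells. Their part in the results was not tested.

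p53 binds DNA as a tetramer, through response elements made of a pair of half-sites of 10 bases. The RefSeq promoter windows, 250 bases before to 50 bases after an annotated start in GRCm38.p6, are shown for 3 members and for Rps27l, a p53-responsive gene whose values are given further on. They let the letters of the element be seen beside the values. Capitals mark exact matches to the consensus p53 half-site and 20-base elements of adjoining half-sites with at most 2 mismatches, a motif that reads the same on both strands.
Aen, chr7:78895677-78895976, + strand: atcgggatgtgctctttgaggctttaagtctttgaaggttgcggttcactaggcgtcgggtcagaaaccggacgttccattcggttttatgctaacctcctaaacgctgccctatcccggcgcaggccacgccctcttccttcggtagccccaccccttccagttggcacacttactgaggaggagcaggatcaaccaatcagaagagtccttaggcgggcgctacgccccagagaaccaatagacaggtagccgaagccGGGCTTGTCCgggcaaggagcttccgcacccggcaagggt
Ccng1, chr11:40755237-40755536, - strand: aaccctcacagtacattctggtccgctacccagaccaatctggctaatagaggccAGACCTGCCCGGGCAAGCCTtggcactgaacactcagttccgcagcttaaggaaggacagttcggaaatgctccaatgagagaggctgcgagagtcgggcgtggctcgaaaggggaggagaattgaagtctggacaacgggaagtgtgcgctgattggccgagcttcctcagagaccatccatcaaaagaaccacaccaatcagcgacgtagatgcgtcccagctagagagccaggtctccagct
Mdm2, chr10:117710709-117711008, - strand: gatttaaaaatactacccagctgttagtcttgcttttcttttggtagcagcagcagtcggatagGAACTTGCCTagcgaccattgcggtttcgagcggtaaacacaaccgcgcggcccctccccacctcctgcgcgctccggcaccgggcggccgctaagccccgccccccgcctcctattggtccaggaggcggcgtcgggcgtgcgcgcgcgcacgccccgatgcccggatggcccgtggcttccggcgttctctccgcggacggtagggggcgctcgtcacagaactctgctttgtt
Rps27l, chr9:66946163-66946462, + strand: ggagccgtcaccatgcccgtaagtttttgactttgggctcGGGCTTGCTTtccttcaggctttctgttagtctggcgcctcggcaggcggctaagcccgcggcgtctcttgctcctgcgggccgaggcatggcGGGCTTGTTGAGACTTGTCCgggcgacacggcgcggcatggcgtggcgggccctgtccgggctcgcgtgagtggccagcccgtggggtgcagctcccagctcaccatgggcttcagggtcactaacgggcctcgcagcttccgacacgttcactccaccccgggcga

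In Ccng1 the 20-base element began at position -195 from the start, with 1 mismatch. In the second annotated start of Rps27l it began at -117, also with 1 mismatch, and a separate half-site began at -210. Aen held a half-site alone at 10 bases past its first annotated start, and Mdm2 a half-site alone at -186. The p53-responsive promoter of Mdm2 is known to lie in its first intron, outside this window. Of 6 measured members with an entry in the table, 4 had a half-site in at least 1 window, namely these 3 and Gadd45a, and Mdm4 and Bbc3 had none. Counted by window, 5 of the 10 windows of these members held a half-site and 1 an element, both Aen windows holding the same site. Over all 32817 windows of the same length, 8.36% held a half-site and 0.795% an element. A match is a run of letters, and binding was not measured.

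The question of the design for these genes is whether raised or lowered Tcof1 goes with a change in p53 target transcripts. In overexpressing cells against wildtype, 1 of the 15 member probe sets rose, for Aen, and 1 fell, for Trp53inp1. Across all 22626 probe sets 9.59% were called in that comparison, 4.52% higher and 5.07% lower, so 2 of 15 lies near the background. The groups did not overlap for 4 of 15 member probe sets, against 27.8% of all. In knockdown cells against wildtype, 0 of 15 were called by limma, against 0.0133% of all probe sets, and 1 had an unadjusted p under 0.05, against 10.9% of all. Between overexpressing and knockdown cells 1 of 15 was called, an Aen probe set that was higher, against 7.57% of all, 3.43% being higher. Those groups did not overlap for 6 of 15, against 28.1% of all, and knockdown and wildtype for 2 of 15, against 15.6%. An unadjusted p under 0.05 was found for 4 of 15 in overexpressed over wildtype and 5 of 15 in overexpressed over knockdown. The share over all probe sets in those comparisons is not given here. The median log2 fold change of the 8 genes, each by its brightest probe set, was 0.23 in overexpressing and 0.16 in knockdown cells against wildtype, beside -0.03 and 0.04 over all 12393 named genes. Over all 15 member probe sets the medians were 0.17 and 0.013, beside -0.016 and 0.030 over all probe sets, so the knockdown value of 0.16 was seen only with the brightest probe sets. Both comparisons share the wildtype arrays. Calls are at an adjusted p under 0.05 (Benjamini-Hochberg over all probe sets), and fold changes are log2 ± SE on intensity + 16.

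**Figure D1:**
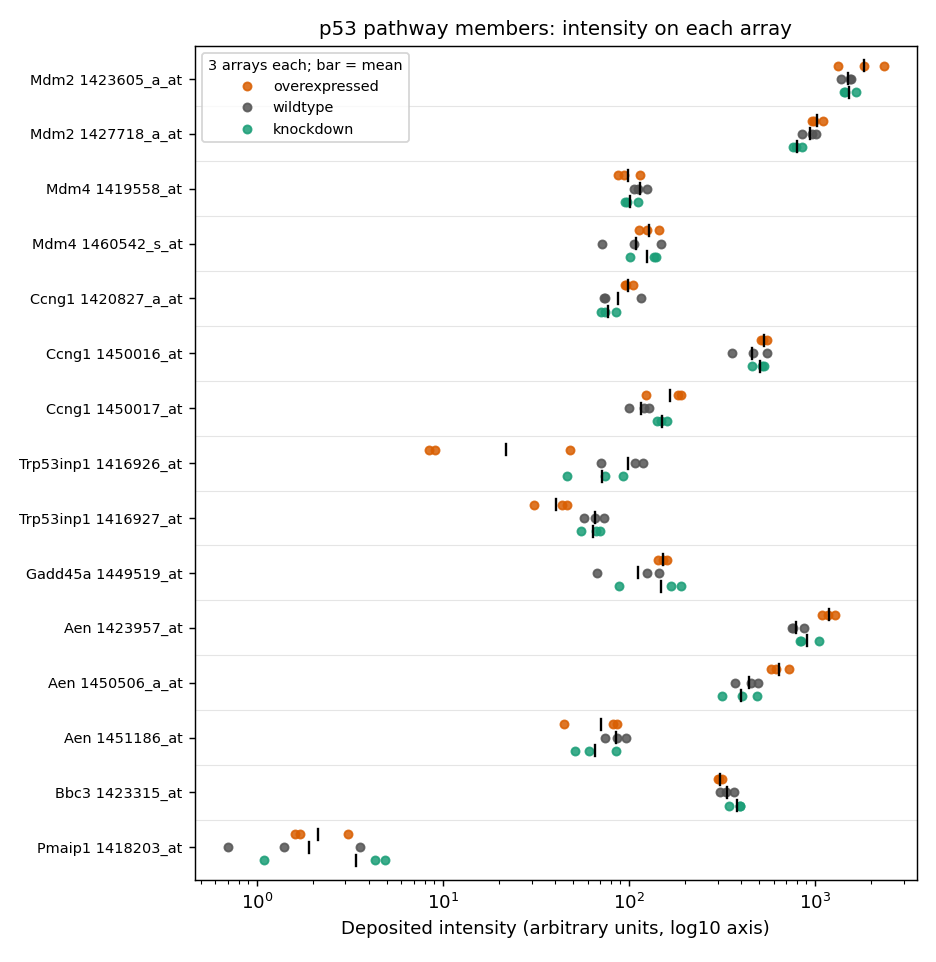
Deposited intensity (arbitrary units, log10 axis) of the 15 member probe sets on each of the 9 arrays; points are arrays, coloured by group, and black bars are group means. Overexpressing arrays lie above all wildtype arrays for 2 Aen probe sets and below all of them for both Trp53inp1 probe sets, and Pmaip1 lies at 4.9 units or less on every array.

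Aen encodes an exonuclease that p53 induces and that takes part in apoptotic DNA breakdown. Its brightest probe set, 1423957_at, read 1089.7, 1290.9 and 1176.4 units in overexpressing arrays A, B and C, 752.3, 759.1 and 873.1 in wildtype and 847.1, 1056.7 and 836 in knockdown arrays. All overexpressing arrays lay above all others, while knockdown and wildtype arrays overlapped. The means were 1186 ± 101 (SD, n = 3), 794.8 ± 67.9 and 913.3 ± 124. Overexpressed over wildtype was 0.57 ± 0.12 (adjusted p = 0.0132, limma), knockdown over wildtype 0.19 ± 0.12 (adjusted p = 0.594), and overexpressed over knockdown 0.38 ± 0.12 (adjusted p = 0.0817). The order was thus overexpressing, knockdown, wildtype, and the latter pair did not differ beyond their spread.

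A second Aen probe set, 1450506_a_at, read 725, 618.3 and 579.8 units in overexpressing, 451.4, 374.1 and 497.8 in wildtype and 316.8, 404.2 and 487.2 in knockdown arrays. Again all overexpressing arrays lay above the rest. It was 0.53 ± 0.17 over wildtype (adjusted p = 0.0796) and passed against knockdown, at 0.66 ± 0.17 (adjusted p = 0.0388). The third, 1451186_at, was dim, at 44.7 to 96.7 units over all arrays, with overlapping groups and -0.25 ± 0.28 over wildtype (adjusted p = 0.683). The call over wildtype was lost without overexpressed array B (adjusted p = 0.0568), without wildtype array B (0.0602), without the mean-variance trend (0.0508) and with the mean of the 3 probe sets (0.28, adjusted p = 0.293). The call against knockdown was lost without any 1 of the overexpressed arrays or without knockdown array A or B (adjusted p = 0.0616 to 0.144).

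Trp53inp1 encodes a stress protein that p53 induces and that in turn promotes p53 activity and autophagy. Its probe set 1416926_at read 8.4, 9.1 and 48.3 units in overexpressing arrays A, B and C, 118.9, 107.6 and 71 in wildtype and 74.8, 93.6 and 46.8 in knockdown arrays. Overexpressing arrays A and B stood far below array C, and all 3 were below every wildtype array. Overexpressed over wildtype fell by 1.73 ± 0.39 on the log2 scale (adjusted p = 0.0199), opposite in direction to Aen. Knockdown over wildtype was -0.40 ± 0.39 (adjusted p = 0.755) and overexpressed over knockdown -1.33 ± 0.39 (adjusted p = 0.0681).

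The other Trp53inp1 probe set, 1416927_at, read 44, 46.4 and 31 units in overexpressing, 73.8, 65.8 and 57.5 in wildtype and 69.8, 66.7 and 55.4 in knockdown arrays. Its overexpressing arrays lay below all others, but the difference from wildtype of -0.54 ± 0.23 did not pass (adjusted p = 0.192). In the order of its levels, wildtype and knockdown did not differ beyond their spread (-0.03 ± 0.23, adjusted p = 0.973). The mean of both probe sets fell by 1.14 on the log2 scale (adjusted p = 0.0212). Both probe sets are dim: 27.8% and 28.4% of all probe sets had lower signals, and the size of the first one's change ran from -2.55 with a pseudocount of 1 to -0.94 with 64. Its call was lost when array A or array B of either group was left out (adjusted p = 0.0726 to 0.0791), and was -2.19 without overexpressed array C.

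Mdm2 and Mdm4 are related proteins that bind and hold back p53. Mdm2, which is also a p53 target, read 1335.1, 2346.1 and 1832.6 units in overexpressing, 1391, 1566.7 and 1553.7 in wildtype and 1454.9, 1659.9 and 1439.7 in knockdown arrays on its brightest probe set, 1423605_a_at. The overexpressing arrays spread over the widest range and held both the lowest and the highest of these 9 values. The fold changes over wildtype were 0.25 ± 0.17 in overexpressing and 0.01 ± 0.17 in knockdown cells (adjusted p = 0.438 and 0.983). The latter turned to -0.0217 with a common array median. The intervals of these log2 differences were -0.12 to 0.62 and -0.36 to 0.38 at 95%.

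The second Mdm2 probe set, 1427718_a_at, read 967.6, 986.1 and 1112.8 units in overexpressing, 853.6, 964.5 and 1014.5 in wildtype and 764.8, 791.7 and 852.4 in knockdown arrays. The knockdown arrays lay below all others, just below wildtype array A. It gave the smallest unadjusted p of the members in knockdown over wildtype, 0.0473, at -0.23 ± 0.10 (adjusted p = 0.452), and 0.34 ± 0.10 in overexpressed over knockdown (adjusted p = 0.0688). Groups did not overlap for 15.6% of all probe sets in knockdown over wildtype.

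Mdm4 lacks the ligase activity of Mdm2 and blocks p53's activation domain. On 1419558_at it read 88 to 115.3 units in overexpressing, 106.8 to 126 in wildtype and 95.7 to 112.2 in knockdown arrays, and on 1460542_s_at, whose suffix marks probes shared between transcripts, 113.3 to 145.4, 72 to 148.8 and 102 to 139.6. The ranges overlapped throughout. Neither passed in any comparison, and the pair had opposite signs over wildtype, at -0.19 ± 0.21 and 0.24 ± 0.26 in overexpressing cells.

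Ccng1 encodes cyclin G1, a p53 target that directs a phosphatase to Mdm2. Its brightest probe set, 1450016_at, read 510.6, 526.1 and 555.8 units in overexpressing, 360.2, 556.1 and 465.7 in wildtype and 535, 462.4 and 523.3 in knockdown arrays. Wildtype array A was the lowest, and the groups overlapped. All 3 probe sets had positive values in overexpressed over wildtype, 0.17 ± 0.23, 0.22 ± 0.15 and 0.44 ± 0.21, with adjusted p from 0.257 to 0.754. Gadd45a, a stress protein of arrest and repair, read 153.4, 143.5 and 160.4 units in overexpressing, 125.3, 67.8 and 144.7 in wildtype and 190.2, 88.4 and 169.2 in knockdown arrays. Array B was the lowest in each group. Its fold changes over wildtype, 0.44 ± 0.31 and 0.36 ± 0.31, did not pass (adjusted p = 0.471 and 0.726).

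Bbc3, which encodes Puma, and Pmaip1, which encodes Noxa, are BH3-only proteins that free the mitochondrial death machinery. Bbc3 read 304.5, 315.3 and 303.5 units in overexpressing, 370, 331.2 and 309.1 in wildtype and 345.5, 394.9 and 397.8 in knockdown arrays. Overexpressing arrays lay below all knockdown arrays, but the difference of -0.29 ± 0.13 did not pass (adjusted p = 0.216), with groups not overlapping for 28.1% of all probe sets in that comparison. Against wildtype it was -0.12 ± 0.13 and 0.17 ± 0.13 (adjusted p = 0.67 and 0.681). Pmaip1 read 0.7 to 4.9 units over the 9 arrays, and only 0.34% of probe sets were dimmer. At that signal a fall or a small rise in Pmaip1 could not be seen. Its fold changes over wildtype were 0.02 ± 0.15 in overexpressing and 0.12 ± 0.15 in knockdown cells (adjusted p = 0.966 and 0.835, limma). No array gave a high reading on this probe set, and whether the probe set would report a rise was not tested.

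**Figure D2:**
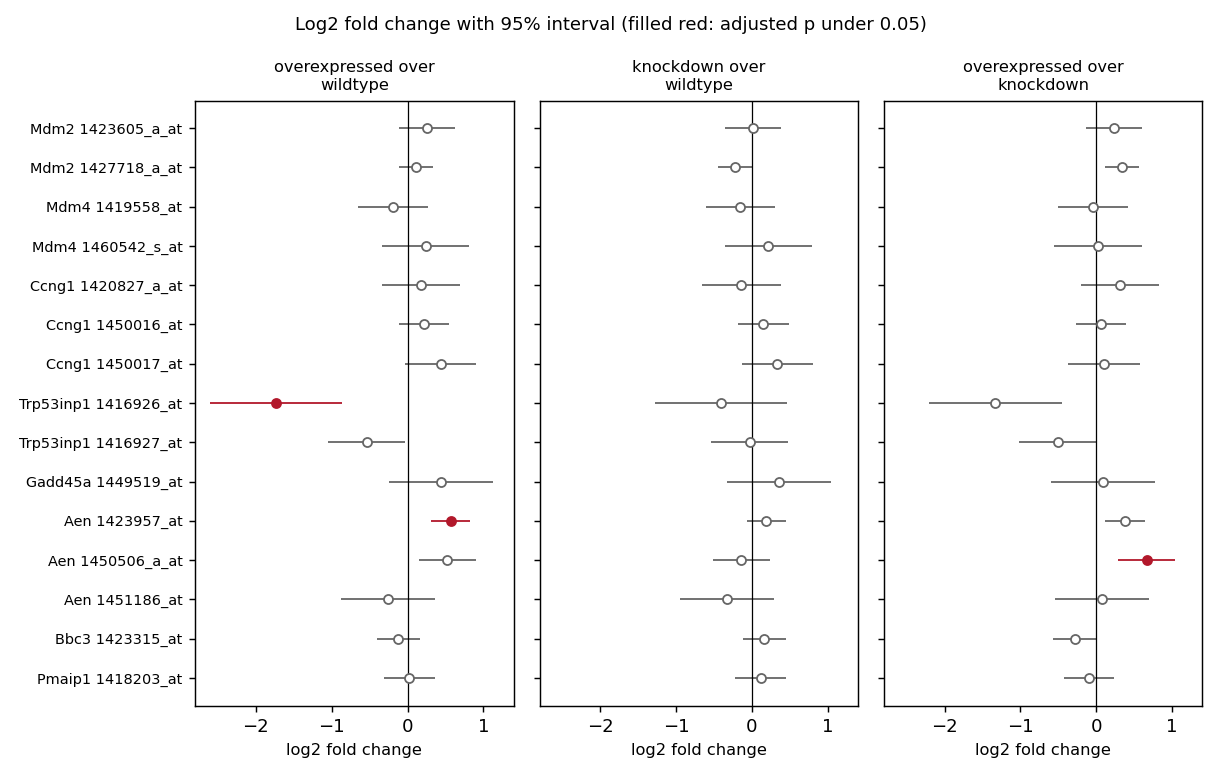
Log2 fold changes (points) with 95% intervals (lines) of the 15 member probe sets in the 3 comparisons; filled red points passed an adjusted p of 0.05. In overexpressed over wildtype only Aen 1423957_at at 0.57 and Trp53inp1 1416926_at at -1.73 passed, and in knockdown over wildtype all intervals but 1, that of Mdm2 1427718_a_at, span 0.

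Across the 9 arrays, the named probe sets whose log2 values followed Mdm2 1423605_a_at most closely were those of Hdgfl2 (Pearson r = 0.955), Clptm1 (0.937), Acr (0.931), Elk4 (0.930) and Cuedc2 (0.903), among 10439 brighter than the median. These 9 arrays share their scaling, and the likeness is a description. Of the 5, each read highest in overexpressing array B, as Mdm2 did.

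The wider pathway was read from 3 gene lists: 35 further p53 targets, 27 regulators of p53 and 22 nucleolar stress sensors, each gene by its brightest probe set. Of all named genes, 5.04% were called higher and 6.21% lower in overexpressing cells. Of 32 measured further targets, 1 rose and 1 fell, with a median of -0.15. Groups did not overlap for 9, against 27.8% of all probe sets. An unadjusted p under 0.05 was found for 6, with no overall share given here. Rps27l, which p53 also induces and which rose, was not in this list but was counted among the sensors. The cyclin G relative Ccng2 fell, reading 290.4, 310.6 and 366 units in overexpressing, 620.4, 705.7 and 626.7 in wildtype and 797.2, 640.2 and 724.7 in knockdown arrays. The overexpressing arrays lay at about the same low level, far below the rest, at -0.98 ± 0.13 over wildtype (adjusted p = 0.00142) and -1.12 ± 0.13 over knockdown (adjusted p = 0.000933). Its other probe set also fell, by 0.90 ± 0.17 (adjusted p = 0.00937). Ccng2 is also known as a target of FoxO factors.

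Gtse1, a p53-binding protein made in the G2 phase of the cell cycle, rose by 1.23 ± 0.25 (adjusted p = 0.013), from 76.1, 107.7 and 177.1 units in wildtype to 255.6, 277.6 and 338.3 in overexpressing arrays. The knockdown arrays lay between, at 180 to 201.1 units, 0.67 ± 0.25 over wildtype (adjusted p = 0.378). Cdkn1a encodes p21, the main arrest effector of p53, and is named here after its values were seen. Its brighter probe set read 2001.1, 2140.5 and 2074.8 units in overexpressing, 1834.3, 1709.5 and 1801.6 in wildtype and 1979.2, 1853.8 and 1977.4 in knockdown arrays. Both manipulated groups lay above every wildtype array, yet the differences of 0.22 ± 0.08 and 0.12 ± 0.08 did not pass (adjusted p = 0.106 and 0.605). Its other probe set was at 0.45 ± 0.17 and 0.10 ± 0.17 (adjusted p = 0.126 and 0.883). The single higher call was lost without overexpressed array C or wildtype array B, and the lower count was 2 without overexpressed array C, wildtype array A or wildtype array C.

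In knockdown cells 0 of the 32 further targets were called by limma, against 0.00807% of named genes. An unadjusted p under 0.05 was found for 5, against 10.9% of all probe sets. The smallest p-values were those of Zmat3, an RNA-binding p53 target, at -0.63 ± 0.16 (adjusted p = 0.2), and Ddit4, an inhibitor of the growth kinase mTORC1, at 0.39 ± 0.11 (adjusted p = 0.276). Zmat3 read 258.6, 361.2 and 275.1 units in knockdown and 444.2, 482.6 and 466.5 in wildtype arrays, without overlap. Ddit4 read 4884.8, 4791 and 4864.3 units in knockdown, 3129.2, 4016.8 and 4042.3 in wildtype and 2611.4, 2770.4 and 3243.8 in overexpressing arrays. Between overexpressing and knockdown cells it passed, at -0.76 ± 0.11 (adjusted p = 0.00423), and with Ccng2 it made up the 2 of 32 called lower there, against 5.25% of named genes.

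**Figure D3:**
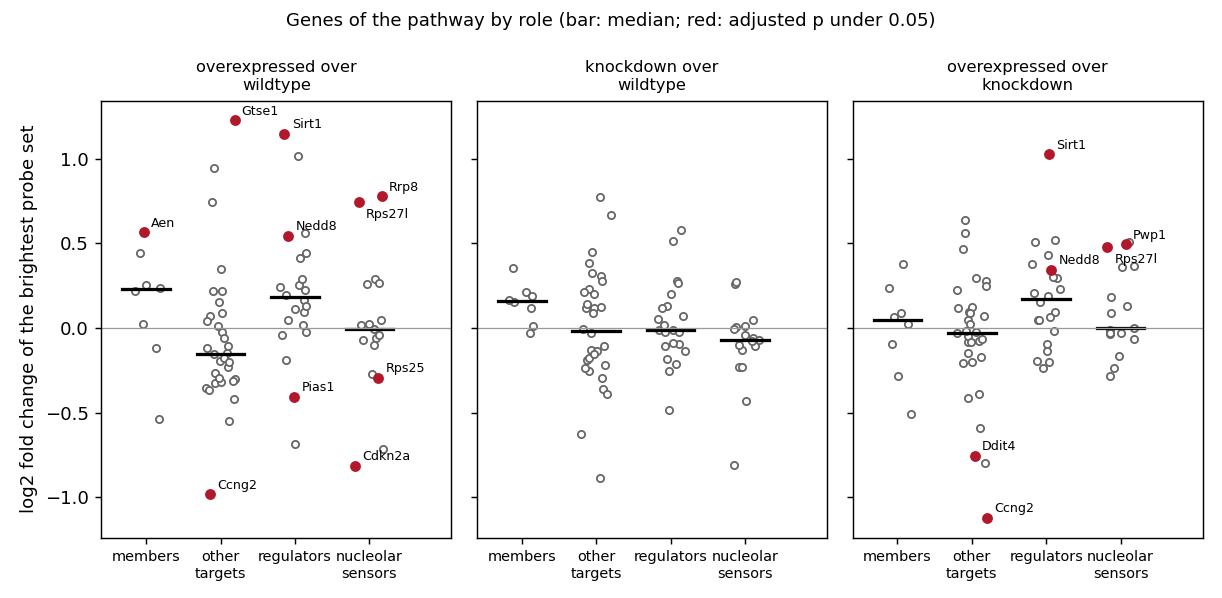
Log2 fold change of each gene's brightest probe set in the 3 comparisons, for the 8 measured members, 32 other p53 targets, 22 regulators and 17 nucleolar stress sensors; bars are medians and red points passed an adjusted p of 0.05. Called genes lie on both sides of 0 in overexpressed over wildtype, and none is called in knockdown over wildtype.

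Of 22 measured regulators of p53, 2 rose and 1 fell in overexpressing cells, beside 5.04% and 6.21% of named genes, with a median of 0.18. Overexpressing and wildtype arrays did not overlap for 7, against 27.8% of all probe sets. An unadjusted p under 0.05 was found for 8, with no overall share given here. Nedd8, a ubiquitin-like protein that Mdm2 attaches to p53 and to ribosomal proteins, read 2976.3, 3224 and 3448.5 units in overexpressing, 2110.6, 2276.8 and 2204.3 in wildtype and 2476.6, 2495 and 2606.1 in knockdown arrays. The 3 groups did not overlap, and Nedd8 rose by 0.54 ± 0.08 over wildtype (adjusted p = 0.00248) and by 0.34 ± 0.08 over knockdown (adjusted p = 0.0275). Sirt1, a deacetylase that acts on p53, rose by 1.15 ± 0.25 (adjusted p = 0.0171), from 112.8, 94.9 and 187.1 units in wildtype to 372.4, 287.7 and 252.1 in overexpressing arrays. It read 149.6, 152.7 and 117.2 in knockdown arrays, among the wildtype values, and differed from overexpressing arrays by 1.03 ± 0.25 (adjusted p = 0.0335), a call lost with the letter as a replicate block (adjusted p = 0.0550).

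Pias1, a SUMO ligase of p53, fell by 0.41 ± 0.10 over wildtype (adjusted p = 0.0243) on its brightest probe set, from 1011.2, 918.8 and 858.1 to 663.2, 731.7 and 694 units. Its 2 dimmer probe sets had positive values that did not pass. In knockdown cells 0 of 22 were called by limma, against 0.00807% of named genes. Of the 22, 2 had an unadjusted p under 0.05, against 10.9% of all probe sets. The smallest p-values there belonged to Atr, a kinase of the replication checkpoint, at 0.51 ± 0.19 (adjusted p = 0.356), and Nedd8, at 0.20 ± 0.08 (adjusted p = 0.402). The count of regulators that rose was 1 when array A or array B of either group was left out and 5 without wildtype array C. The call of Pias1 was lost without overexpressed array A or C or wildtype array A or B. Against knockdown, where Sirt1 and Nedd8 were the 2 called higher beside 3.56% of named genes, it was 1 without overexpressed array A and 0 without overexpressed B or C or knockdown A, B or C.

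Of 17 measured nucleolar stress sensors, 2 rose and 2 fell in overexpressing cells, beside 5.04% and 6.21% of named genes, with a median of -0.005. Overexpressing and wildtype arrays did not overlap for 9, against 27.8% of all probe sets. An unadjusted p under 0.05 was found for 9, with no overall share given here. Rps27l, a ribosomal protein paralogue that p53 induces and that binds Mdm2, rose on all 3 of its probe sets. The set 1450925_a_at read 3820.3, 3490.5 and 3295.7 units in overexpressing, 1808.8, 1851.7 and 2241.6 in wildtype and 2337.6, 1982 and 2504.1 in knockdown arrays. Overexpressing arrays lay above all others, and the sets were higher than wildtype by 0.84 ± 0.11, 0.68 ± 0.09 and 0.74 ± 0.11 (adjusted p = 0.00168, 0.00117 and 0.00231). Against knockdown they were higher by 0.64 ± 0.11, 0.70 ± 0.09 and 0.48 ± 0.11 (adjusted p = 0.00947, 0.00139 and 0.0237). Knockdown over wildtype ran from -0.02 to 0.26 and did not pass. The latter 2 sets are of a type that can match similar sequences, such as those of its near copy Rps27, whose own probe set was at -0.72 ± 0.31 over wildtype (adjusted p = 0.194), with wildtype array A far above the rest at 930.6 units. The promoter of Rps27l is the one shown with a 20-base element at -117. Elements with 1 mismatch also began at -1 in a window of Gtse1, which was called higher, and at -51 in a window of Cdkn1a, which was not called. The called genes Ccng2, Sirt1, Nedd8 and Cdkn2a had no half-site in their windows, which is the common case, as 8.36% of all windows held one. Genes outside the members were picked by name for this reading. Windows of Ddit4, Pias1, Rrp8, Rps25 and Pwp1, which were also called in a comparison, were not examined. A link between elements and changes was not tested.

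Rrp8, a nucleolar methyltransferase, rose by 0.78 ± 0.19 (adjusted p = 0.0243), from 263.8, 252.2 and 433.7 units in wildtype to 562.6, 518.5 and 535.6 in overexpressing arrays. Wildtype array C stood above the other wildtype arrays. Rps25, a ribosomal protein reported to bind Mdm2, fell by 0.29 ± 0.08 (adjusted p = 0.0401). Cdkn2a, whose product p19Arf holds Mdm2 in the nucleolus and which also encodes p16, read 198.7, 279.5 and 261.6 units in overexpressing, 446.9, 496.8 and 386.7 in wildtype and 270.5, 170.5 and 313.8 in knockdown arrays. Both manipulated groups lay below all wildtype arrays. Cdkn2a was lower in overexpressing cells, at -0.81 ± 0.22 (adjusted p = 0.0418), and at -0.81 ± 0.22 in knockdown cells (adjusted p = 0.237), the same wildtype arrays serving both. The probe set does not tell the products of Cdkn2a apart.

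Rpl11, the measured one of the ribosomal proteins best known for holding Mdm2, read 14956.5, 16985.3 and 17885.1 units in overexpressing and 16995.8, 16776.6 and 16095.1 in wildtype arrays. It is named after its values were seen, and overexpressed over wildtype was -0.0048 ± 0.09 (adjusted p = 0.988). In knockdown cells 0 of 17 sensors were called by limma, against 0.00807% of named genes. Of the 17, 2 had an unadjusted p under 0.05, against 10.9% of all probe sets. The 2 were Cdkn2a and Rps27l, the latter at 0.26 ± 0.11 (adjusted p = 0.413). Against knockdown, 2 of 17 were higher, Rps27l and Pwp1, beside 3.56% of named genes. Pwp1, a chromatin protein of ribosomal RNA genes, was at 0.49 ± 0.11 (adjusted p = 0.0258). The other Pwp1 probe set, 1454142_a_at, was at 0.13 ± 0.15 (adjusted p = 0.661). On the brightest one, Pwp1 read 1298.1, 1174.7 and 1033.7 units in overexpressing, 1007.2, 923.7 and 969.6 in wildtype and 881.6, 719.4 and 873.4 in knockdown arrays.

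The 2 higher calls over wildtype became 1, Rps27l, without any 1 of overexpressed arrays A, B and C or wildtype arrays A and B. The 2 lower calls became 0 without any 1 of overexpressed arrays A, B and C, wildtype arrays A and B or knockdown array A, and 1 without knockdown array C. Rps25 also lost its call without wildtype array C (adjusted p = 0.0556), where Cdkn2a kept it (adjusted p = 0.0474). The higher calls against knockdown became 1 without overexpressed array A or C and 0 without overexpressed array B or knockdown array B. Rps27l 1423254_x_at also lost that call without knockdown array A (adjusted p = 0.0779), where Pwp1 kept it (adjusted p = 0.0475).

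**Figure D4:**
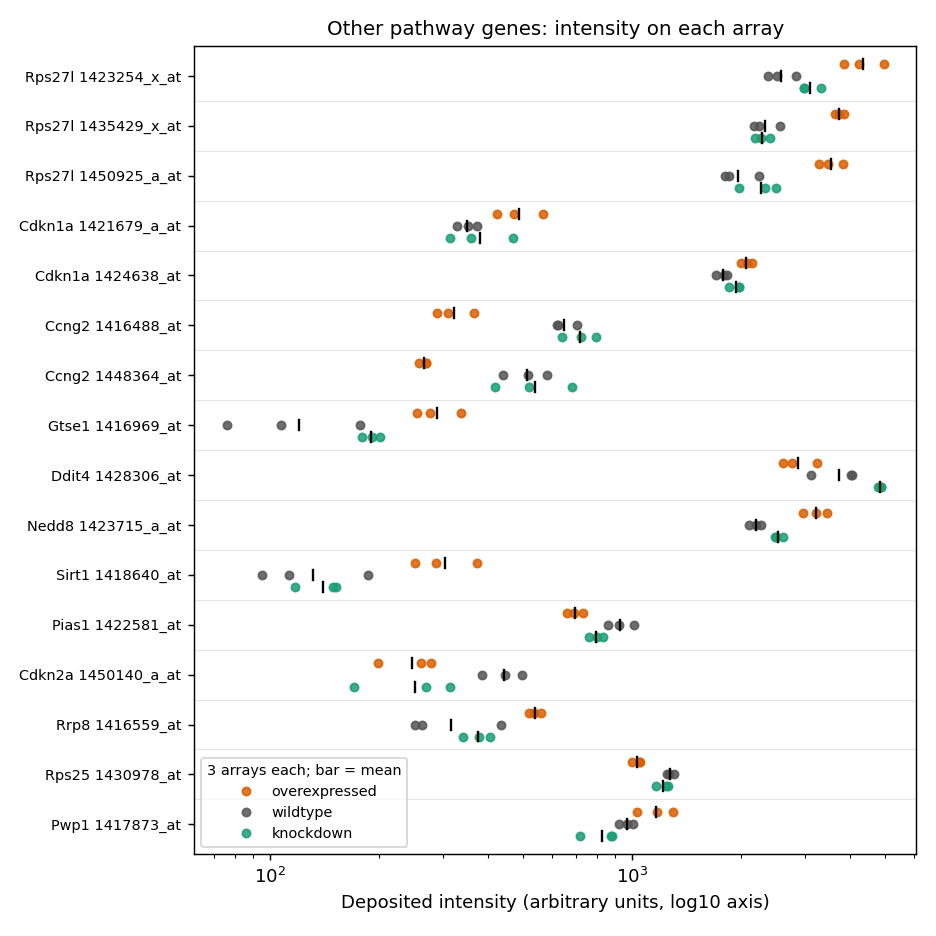
Deposited intensity (arbitrary units, log10 axis) on each of the 9 arrays for pathway genes outside the members, with all probe sets of Rps27l, Cdkn1a and Ccng2 and the brightest of the rest; points are arrays and black bars group means. Overexpressing arrays stand above all others for the 3 Rps27l probe sets and below all others for both Ccng2 probe sets, and both manipulated groups lie below wildtype for Cdkn2a.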

How the data were processed

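The authors deposited 1 linear intensity per probe set and array, with no detection calls; the sources used here name no software, background correction or scaling. With 2% trimmed from each end, every one of the 9 arrays averaged 500.2, so a common scaling had been applied. Control probe sets (64 of 22690) were left out. Of the remaining 22626, 20380 had exactly 1 symbol in the platform annotation, 691 several and 1555 none. Gene identifiers were set against RefSeq (GRCm38.p6), and 0 symbols needed updating.

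The scale used was log2(intensity + 16), on which changes at low signal come out too small. Fits used limma 3.58.1 under R 4.3.3 (a mean per group over all 9 arrays, eBayes with a mean-variance trend) and gave the fold changes, SE and p-values, adjusted by Benjamini-Hochberg over all probe sets per comparison. The fit was tested on simulated arrays. The number of arrays limits the precision. Promoter windows came from RefSeq tables and were scanned in Python 3.11.15.

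The members and lists were chosen with earlier results of these data known. The genes named from each list were all called ones up to 4, or the 2 with the smallest p where none was called. The rule for genes most like Trp53 in pattern could not be applied without a probe set, so only Mdm2 was used. Each array was left out in turn. Further alternatives changed the pseudocount to 1 or 64, dropped probe sets below the 40th brightness percentile, or normalized by quantiles or to 1 shared median. Others left out the trend, weighted arrays by quality, blocked on the letter, or averaged a member's probe sets.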

Additional observations from a re-analysis of the deposited data

How the results depend on the processing

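The number of arrays and the low signal of Trp53inp1 and Pmaip1 limit these results. In knockdown over wildtype 0 members and 0 list genes were called under every alternative run. The falls of Ccng2 and Ddit4 against knockdown, and the changes of Ccng2, Rps27l and Nedd8 against wildtype, kept their calls in all 17 alternatives each. Where a count moved, the cause was not tested, except that Trp53inp1 is not among the probe sets above the 40th percentile.

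In overexpressed over wildtype, member probe sets that rose numbered 2 with array quality weights or the 40th percentile filter and 0 without the trend, and those that fell 0 with the filter. Further targets that fell numbered 2 with weights or the filter. Regulators that rose numbered 4, and those that fell 2, with the filter, 3 rose with weights, and 0 fell without the trend. Nucleolar sensors that rose numbered 1 without the trend. Sensors that fell numbered 0 with a common array median, without the trend or with the letter as a replicate block, 1 with the filter or quantile normalization, and 3 with weights. In overexpressed over knockdown, members, regulators and sensors that rose each numbered 0 without the trend, and members 0 with the replicate block. Regulators that rose there numbered 3 with weights or the filter, and sensors 3 with a common median, the replicate block or the filter.

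Leaving out 1 array at a time, the counts over wildtype ran from 0 to 1 for members that rose and for those that fell, 0 to 1 and 1 to 2 for further targets, 1 to 5 and 0 to 1 for regulators, and 1 to 2 and 0 to 2 for sensors. Over knockdown they ran from 0 to 2 and 0 to 1 for members, and 0 to 3 for regulators and for sensors that rose. Member counts over knockdown were 0 higher without knockdown array A or any 1 overexpressed array, 2 higher without wildtype array A, and 1 lower, Trp53inp1 1416926_at at -1.79, without overexpressed array C.

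Uncalled values near 0 changed sign. Knockdown over wildtype, Mdm2 1423605_a_at turned from 0.01 to -0.0196 with quality weights, -0.0217 with a common median and to -0.11 as a mean of probe sets, and Aen 1423957_at from 0.19 to -0.0918 as a mean of probe sets. Overexpressed over knockdown, Mdm4 1419558_at turned to 0.0107 with a common median and 0.0712 with quantile normalization, and Mdm4 1460542_s_at to -0.0096 as a mean of probe sets. Leaving out 1 array at a time, sign changes occurred knockdown over wildtype in the ranges -0.10 to 0.0489 (Trp53inp1 1416927_at), -0.23 to 0.0464 (Ccng1 1420827_a_at), -0.0526 to 0.0490 (Mdm2 1423605_a_at), -0.0084 to 0.29 (Ccng1 1450016_at), -0.28 to 0.0179 (Aen 1450506_a_at) and -0.0161 to 0.44 (Mdm4 1460542_s_at). Overexpressed over knockdown they were -0.14 to 0.0258 (Mdm4 1419558_at), -0.22 to 0.28 (Gadd45a), -0.0601 to 0.32 (Aen 1451186_at) and -0.10 to 0.10 (Mdm4 1460542_s_at), and Pmaip1 over wildtype in overexpressing cells ran from -0.0273 to 0.0882.

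Same-lettered arrays of different groups had correlations of deviations from -0.0452 to 0.20, not all above 0.1. The letters were not used as pairs in the main fit, a choice that these values do not settle. Arrays of different letters ran from -0.27 to 0.19. In 11 of 18 cases an array correlated best with its own letter among the 3 of another group. Whether arrays of a letter share an effect was not tested, and the replicate block was run as an alternative. With the replicate block, Rps25 was at -0.29 and Cdkn2a at -0.81 over wildtype without their calls (adjusted p = 0.0636 and 0.0679). Over knockdown, Sirt1 at 1.03 and Aen 1450506_a_at at 0.66 also lost theirs (adjusted p = 0.0550 and 0.0556).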
